A study of Rattus norvegicus with 69 samples.

Results

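The step of the rat seminiferous epithelial cycle from stages IV-V to stage VI was examined by setting the 5 tubule samples titled as stage VI against the 4 titled as stages IV-V, 9 of the 69 arrays of the series. The study measured RNA on 1-colour Affymetrix arrays in 49 samples of dissected tubules from 10 stage groups, in 15 samples of isolated testis cells and in 5 whole testes. Tubule segments were picked by transillumination, in which each stage is recognised by the light pattern of the intact tubule, from Sprague Dawley rats aged 55 to 60 days. Each stage VI sample and each stage IV-V sample pooled segments from 2 rats, with 25 segments from each rat, and 6 µg of total RNA was labelled per array. The stage VI samples carried replicate numbers 1 to 5 and the stage IV-V samples 2 to 5. Neither group was treated or mutant, and both hold the whole tubule wall: Sertoli cells, every germ cell generation of that stage, and the peritubular myoid cells around them. In such whole-tubule samples, more cells of a type and more RNA per cell cannot be told apart.

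In the rat, germ cell generations of different ages lie above each other in fixed combinations, and the stages name these combinations. Between stages IV-V and stage VI the round spermatids spread the acrosomal cap over the nucleus, the older elongated spermatids finish packing their DNA, the pachytene spermatocytes continue meiotic prophase, and type B spermatogonia divide towards preleptotene spermatocytes. Sertoli cells, which span the epithelium, change their secreted proteins with the stage.

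The step was small across the array. Of the 31042 probe sets (the groups of short probes that each measure 1 transcript), 105 differed at least 2-fold with a limma adjusted p under 0.05 (0.338%), here termed called. Of these, 62 were higher at stage VI (0.2%) and 43 were lower (0.139%). At any fold, 535 probe sets passed the same test (1.72%), of which 260 were higher (0.838%) and 275 lower (0.886%); with each array centred on its median, 146 were higher and 252 lower. Of the 535, 430 differed by less than 2-fold, and the median fold over all 535 was 1.53. Without adjustment, limma's p was under 0.05 for 3325 of the 31042 probe sets. Among the 105, the 5 stage VI and 4 stage IV-V samples did not overlap for 82, against 1736 of all probe sets (5.59%). The call was made on these same samples, so the 82 are a description and not support for the calls. With 1 probe set per gene, 417 of 14217 genes passed the test (2.93%), and the groups did not overlap for 1168 (8.22%). By that count 48 genes were called higher (0.338%) and 20 lower (0.141%). The called higher had a median fold of 2.45 and a largest of 7.88, and the called lower a median of 2.35 and a largest of 9.05. Only 6 probe sets rose and 1 fell by 4-fold or more. Fold changes here come from log2(signal + 5.12), which holds down the fold of dim probe sets.

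**Figure D1:**
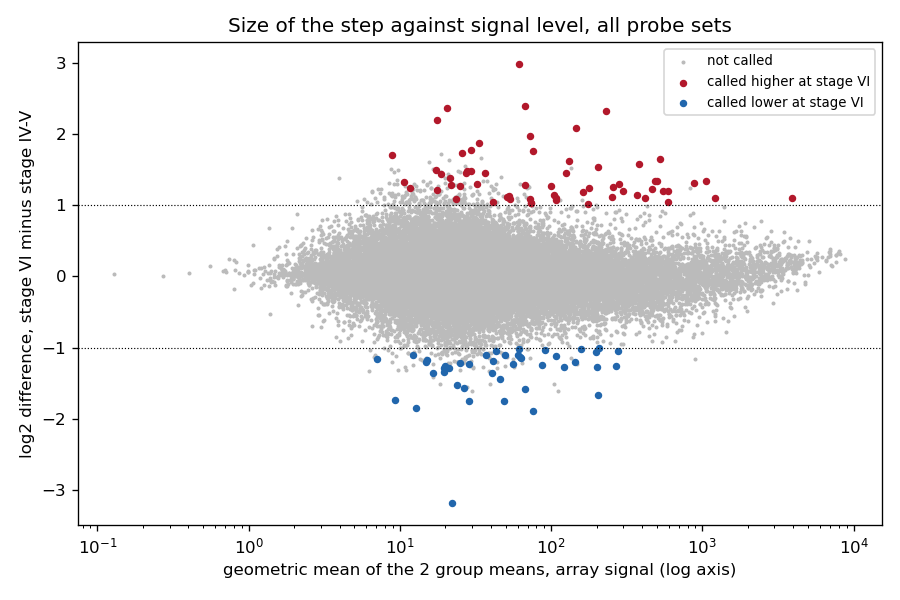
Difference between stages on the vertical axis (log2, stage VI minus stage IV-V) against signal on the horizontal axis (array units, log axis) for 31042 probe sets. Red points are the 62 called higher at stage VI, blue points the 43 called lower, and the dotted lines mark 2-fold.

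Most of the array moved very little. The median absolute difference was 0.195 on the log2 scale, the 95th percentile was 0.722 and the 99th 1.07. Estimated differences lay within 1.5-fold for 90.6% of probe sets and within 2-fold for 98.6%. The overall median was 0.02, close to no shift over the array; it was -0.02 with median centring. The spread between samples was of the same order as the step: the median SD within a group was 0.33 on the log2 scale at stage VI and 0.26 at stages IV-V. Correlations of log2 signal between a stage VI and a stage IV-V sample averaged 0.934 over 20 pairs, against 0.931 over the 10 pairs within stage VI and 0.947 over the 6 pairs within stages IV-V.

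A constant level was tested directly, since a missed test does not show one. A probe set was termed held when 2 one-sided tests from the same limma fit put its difference inside 1.5-fold either way at an adjusted p under 0.05. Among 14696 probe sets with a mean signal above the table median of 43.7 in both groups, 8750 were held (59.5%). Another 5542 (37.7%) were neither held nor past the test of a difference, and 65 were both, being different and yet inside 1.5-fold. The share held followed the precision: in 4 equal groups of rising signal it was 36.0%, 54.7%, 70.2% and 77.3%, while the median standard error dropped from 0.247 to 0.117 and the median absolute difference stayed between 0.152 and 0.163.

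The step had the fewest called probe sets of the 10 steps round the cycle, with 121 at VIIc.d to VIII and 208 at XII to XIII-XIV next and 841 at I to II-III the most. Without stage VI replicate 1 the count was 141, more than the 121 that VIIc.d to VIII had with all samples. At any fold it also had the fewest past the test, 535 against 775 at VIIc.d to VIII. The typical difference gave another order: the median of 0.195 stood above the 0.187 of VIIc.d to VIII and the 0.192 of XII to XIII-XIV. That median includes the noise of the group means. With the mean squared standard error taken off the variance of the differences, the SD left was 0.156, the lowest of the 10, beside 0.157 at VIIc.d to VIII. Stage IV-V had 4 samples where every other stage group had 5, and neighbouring steps share a group, so these are descriptions of each step.

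**Figure D2:**
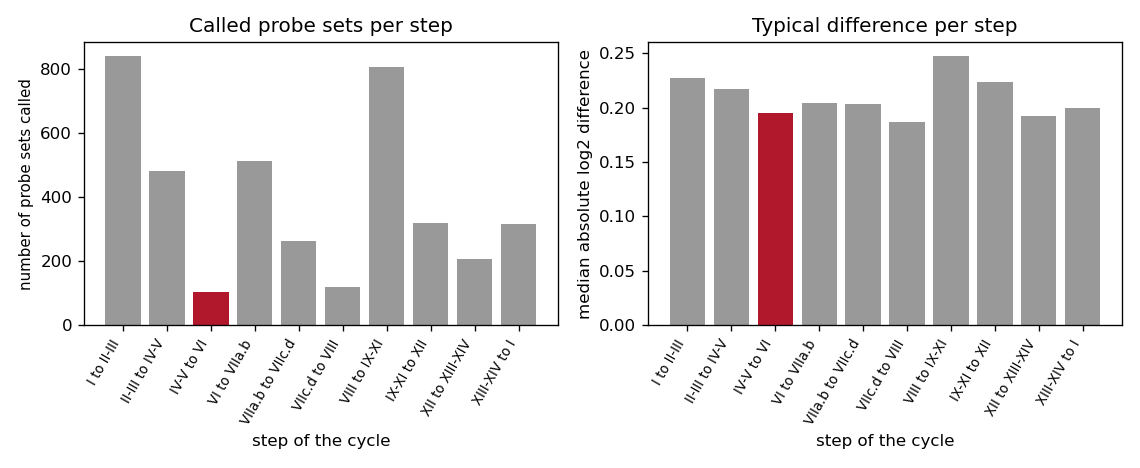
Left, number of probe sets called (adjusted p under 0.05 and 2-fold) at each of 10 steps; right, median absolute log2 difference at each step. The step from IV-V to VI is in red, with 105 calls and a median of 0.195.

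Most probe sets that rose had their highest signal in round spermatids. Of the 62 called higher, 41 (66.1%) had their highest signal in isolated round spermatids among 4 isolated cell preparations, against 8531 of all 31042 (27.5%). At least 4-fold enrichment in round spermatids over every other preparation was found for 28 of them (45.2%), against 409 of all (1.32%). The isolated cells took no part in the stage comparison: Sertoli cells (4 samples, about 85% pure), round spermatids (4) and pachytene spermatocytes (4) came from rats of 55 to 60 days, and a mixture of spermatogonia and early spermatocytes (3) from rats of 18 to 20 days. Of the 43 called lower, 17 (39.5%) were highest in round spermatids and 15 (34.9%) in pachytene spermatocytes, against 27.5% and 20.6% of all probe sets. Of the 275 lower at any fold, 99 (36.0%) were highest in round spermatids and 127 (46.2%) in pachytene spermatocytes. None of them was 4-fold enriched in pachytene spermatocytes, where only 51 of all 31042 probe sets were (0.164%).

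The 409 round spermatid-enriched probe sets were higher at stage VI on balance. Their mean log2 level was 9.0, 9.12, 9.06, 9.08 and 9.12 in the 5 stage VI samples, against 8.90, 8.82, 8.87 and 8.80 in the 4 stage IV-V samples. No stage VI sample reached down to the stage IV-V range. Of the 409, 74 passed the test as higher (18.1%) and 6 as lower (1.47%), with a median difference of 0.20 against 0.02 over all probe sets. Among the 388 of them above the table median in both groups, 36.3% were held, against 59.5% of all such probe sets. The 514 Sertoli-enriched probe sets had a median of 0.02, with 5 higher (0.973%) and 2 lower (0.389%). The 297 enriched in spermatogonia and early spermatocytes had a median of 0.06 and none past limma's adjusted test. An unadjusted p under 0.05 was found for 21 of them, against 3325 of all 31042 probe sets. The 51 enriched in pachytene spermatocytes also had a median of 0.06, with 2 higher (3.92%) and 0 lower. Over all probe sets 0.838% passed as higher and 0.886% as lower.

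Over the cycle, stage VI stood on a slope for most of the genes that rose. Of the 62 called higher, 56 (90.3%) had their highest stage mean later, 15 at VIIa.b, 9 at VIIc.d, 15 at VIII and 17 at IX-XI, against 46.3% of all probe sets at these 4. The other 6 (9.68%) had it at stage VI, near the 9.81% of all probe sets. Of the 43 called lower, 22 (51.2%) had their highest mean at I or II-III and 9 (20.9%) at IV-V, against 20.9% and 8.17% of all, and 18 had their lowest at stage VI. The call itself bars a peak at IV-V for the higher and at VI for the lower, so these shares are descriptions. Stage VI replicate 1 was the lowest of the stage VI samples in 46 of the 62 called higher (74.2%), against 20.1% of all probe sets. Its mean log2 level over the 62, which were chosen on this contrast, was 6.95, against 7.5 to 7.60 in the other 4 stage VI samples and 5.89 to 6.10 at stages IV-V. It was the highest of the 5 in 18 of the 43 called lower (41.9%), against 21.6% of all.

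**Figure D3:**
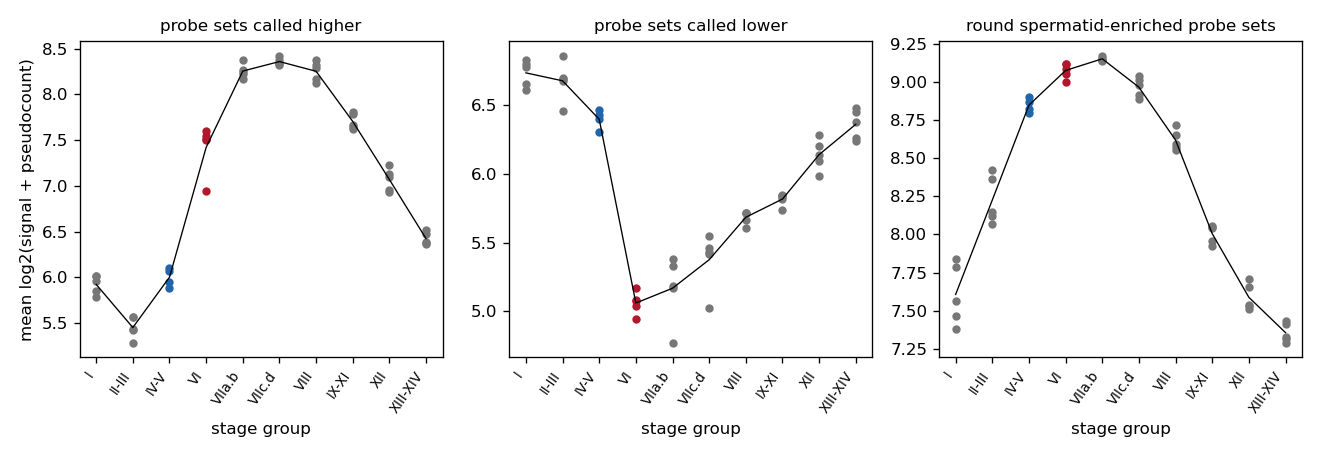
Mean log2(signal + 5.12) per sample over the 10 stage groups for the 62 probe sets called higher, the 43 called lower and the 409 enriched in round spermatids; stage VI samples are red, stage IV-V samples blue, lines join stage means. The first and second sets were chosen on this contrast, and 1 stage VI sample lies below the others in the first.

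Tmem239, a transmembrane protein gene, rose most. Its signal was 98.6, 186, 271, 230.4 and 182 in stage VI samples 1 to 5, against 22, 11.9, 17.5 and 26.4 in stage IV-V samples 2 to 5. The lowest stage VI value was more than 3 times the highest at stages IV-V. Its log2 difference was 2.98 ± 0.23 (SE, adjusted p = 1.69e-12), and it climbed on to 562 ± 49.2 at VIIa.b (SD, n = 5). Isolated round spermatids had 212 ± 19.2 (SD, n = 4).

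Rnf41, which encodes a ubiquitin ligase that acts on receptors of the ERBB and cytokine families, came next among named genes. It measured 94.2, 229.9, 153, 161 and 171 at stage VI, against 53.0, 23.6, 20.9 and 15.1 at stages IV-V. The groups were apart, with the stage IV-V values spread over a range of more than 3-fold. The difference was 2.40 ± 0.30 (SE, adjusted p = 8.63e-07). Signal was 4.46 ± 0.771 at II-III and 219 ± 46.7 at VIIa.b (SD, n = 5 each). Of its other probe sets, neither passed the test (log2 0.46 and 0.05).

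Dynlt5, a dynein light chain gene, had 169, 239, 313, 435 and 419.6 at stage VI, against 47.4, 84.8, 65.9 and 72.8 at stages IV-V, with no overlap. The difference was 2.08 ± 0.32 (SE, adjusted p = 2.52e-05). Prss37, a serine protease-like gene needed for sperm migration in the mouse, had 86.7, 115, 118, 200.1 and 190.5 at stage VI, against 49.1, 12.2, 50.7 and 50.9 at stages IV-V. Every stage VI sample was above all 4 (1.76 ± 0.33, adjusted p = 0.000747), yet the level was still far from the 4465 ± 977 of IX-XI (SD, n = 5). Dimmer Prss37 probe sets did not pass and ran opposite ways (log2 0.46 and -0.28).

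Cst8, a cystatin-family gene of testis and epididymis, and Adam4, a membrane metalloprotease-family gene of germ cells, also rose without overlap. Cst8 was 468, 758, 819, 601 and 661 at stage VI, against 248, 282, 153 and 196 at stages IV-V (1.58 ± 0.16, adjusted p = 7.01e-09). Adam4 was 132, 278, 257, 196 and 213 at stage VI, against 65.2, 76.4, 74.4 and 75.9 at stages IV-V (1.46 ± 0.15, adjusted p = 1.39e-08). In both genes stage VI replicate 1 was the lowest of its group and still above stages IV-V. Both were highest in isolated round spermatids, at 1244 ± 211 for Cst8 and 285 ± 40.5 for Adam4 (SD, n = 4 each).

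Rhbdd1, a rhomboid intramembrane protease gene, rose by 1.54 ± 0.22 (adjusted p = 6.29e-06). Its signal was 202, 372, 378, 471 and 377 at stage VI, against 108, 133, 122 and 102 at stages IV-V, and 24.0 ± 7.01 at II-III (SD, n = 5). Another Rhbdd1 probe set ran the other way without passing (log2 -0.12). LOC102548489 rose by 2.32 ± 0.26 (adjusted p = 4.86e-08), with 525 ± 181 at stage VI (SD, n = 5), against 100.1 ± 39.4 at stages IV-V (n = 4). Its level ran from 1703 ± 393 at stage I through 327 ± 156 at II-III to 4514 ± 962 at IX-XI (SD, n = 5 each), so stages IV-V were its lowest point. Ogfod3, Plxnd1, for a semaphorin receptor, and 1700122O11Rikl rose by 1.62, 1.70 and 1.65, each past the test in all 19 alternative settings.

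Not all probe sets that rose were highest in round spermatids. Among the 62 called higher, 10 (16.1%) were highest in Sertoli cells, 7 (11.3%) in spermatogonia and early spermatocytes and 4 (6.45%) in pachytene spermatocytes. Over all probe sets these shares were 21.0%, 30.9% and 20.6%. Susd3, a small sushi-domain protein gene, was 29.1, 46.0, 61.2, 60.5 and 45.0 at stage VI, against 6.18, 8.5, 2.85 and 8.24 at stages IV-V (2.20 ± 0.36, adjusted p = 0.000111). It was highest in isolated Sertoli cells, at 855 ± 32.9, and 10.9 ± 13.5 in round spermatids (SD, n = 4 each). Etfb, the electron transfer flavoprotein beta subunit of mitochondria, was 18.6, 107, 84.0, 42.1 and 64.4 at stage VI, against 5.93, 7.44, 5.17 and 7.92 at stages IV-V (2.36 ± 0.28, adjusted p = 1.58e-07). Every other stage group averaged between 3.49 and 7.73, so among tubules the signal stood out at stage VI, with values there spread over more than 5-fold. Isolated Sertoli cells had 256 ± 32.9 and round spermatids 2.98 ± 0.482 (SD, n = 4 each). Timp1, an inhibitor of matrix metalloproteases, was 58.4, 50.8, 40.4, 46.1 and 51.7 at stage VI, against 30.8, 13.5, 9.05 and 9.87 at stages IV-V (1.48 ± 0.38, adjusted p = 0.0239). Its groups did not overlap, and the call failed without stage VI replicate 2 or stage IV-V replicate 3, 4 or 5, with adjusted p up to 0.113.

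Ccno, an atypical cyclin gene needed for multiciliated cells, fell most. It was 7.06, 3.84, 6.21, 3.63 and 6.37 at stage VI, against 105, 92.8, 103 and 63.4 at stages IV-V. The stage VI values lay near the pseudocount, so the fitted 9.05-fold is smaller than the ratio of the means, 5.42 ± 1.57 against 91.0 ± 19.2. The difference was -3.18 ± 0.32 (SE, adjusted p = 7.01e-09). Stage VI was the trough of its cycle, with 429 ± 32.5 at stage I and 408 ± 50.2 at IX-XI (SD, n = 5 each). A second, brighter Ccno probe set averaged 139 at stage VI and 155 at stages IV-V and did not pass limma's test (log2 -0.13, adjusted p = 0.84).

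Kif18b, a kinesin of mitotic microtubule ends, was 25.7, 26.3, 6.19, 40.6 and 31.7 at stage VI, against 96.6, 101, 68.5 and 99.5 at stages IV-V (-1.75 ± 0.35, adjusted p = 0.00188). Slx4, a scaffold of structure-specific DNA nucleases, was 17.9, 26.2, 31.0, 60.3 and 61.3 at stage VI, against 152, 158, 167 and 115 at stages IV-V (-1.89 ± 0.39, adjusted p = 0.0028). In both, each stage VI sample lay below every stage IV-V sample. A brighter Slx4 probe set averaged 167 at stage VI and 236 at stages IV-V, the same way without passing (log2 -0.49).

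Numbl, a Numb-family adaptor gene, was 108, 95.6, 94.5, 139 and 132 at stage VI, against 409.8, 391, 358 and 323 at stages IV-V (-1.67 ± 0.36, adjusted p = 0.00461). Dnaaf8, a factor of axonemal dynein assembly, was 66.0, 47.6, 44.5, 60.3 and 55.6 at stage VI, against 148, 152, 124 and 122 at stages IV-V (-1.25 ± 0.27, adjusted p = 0.00438). Both left a wide gap between the groups, but a brighter Dnaaf8 probe set averaged 910.1 at stage VI and 1081 at stages IV-V without passing (log2 -0.25, adjusted p = 0.242). Fam228b fell by 1.27 on the log2 scale, Flywch1 by 1.75 and Mef2c, a MADS-box transcription factor gene, by 1.73. A brighter Flywch1 probe set ran the same way without passing (log2 -0.36, adjusted p = 0.0785). For Mef2c 4 of the 5 stage VI values and the mean of 3.49 were below the pseudocount. Another Mef2c probe set ran the same way without passing (log2 -0.30).

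**Figure D4:**
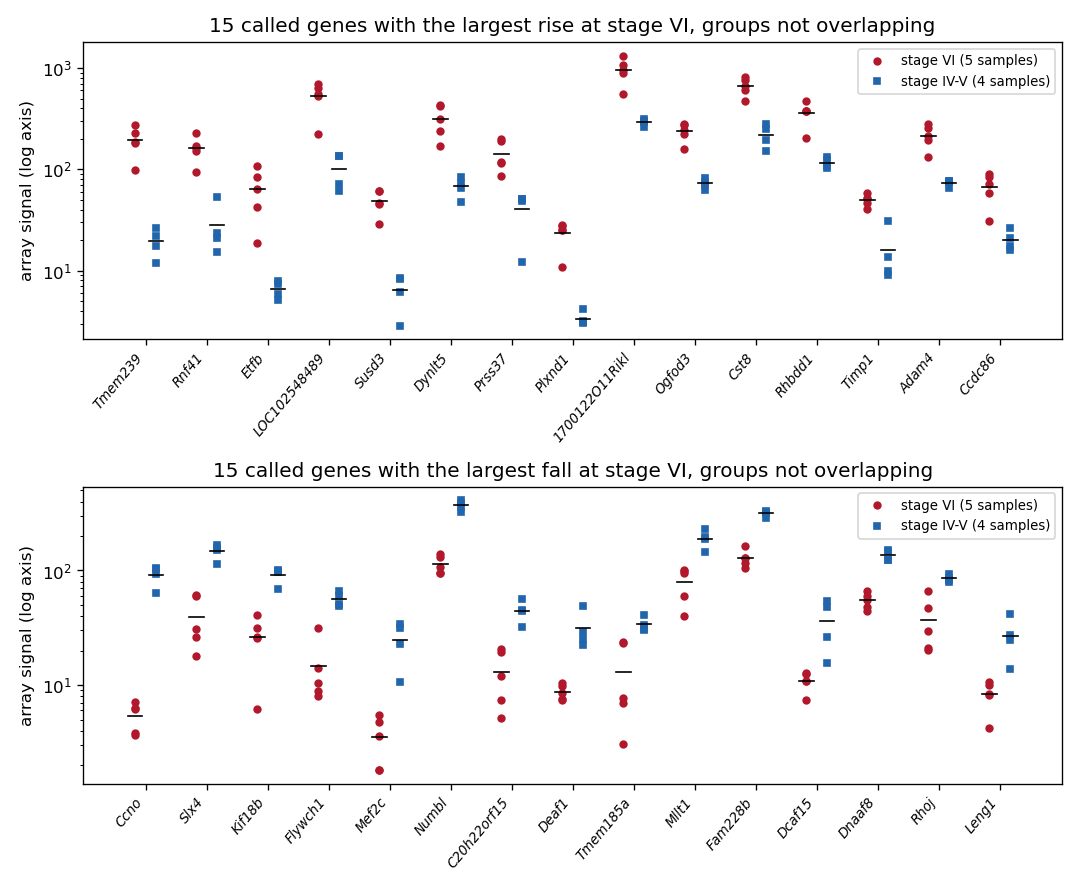
Signal per sample (array units, log axis) of the 15 called genes with the largest rise (top) and the 15 with the largest fall (bottom) among those whose groups do not overlap. Red circles are the 5 stage VI samples, blue squares the 4 stage IV-V samples, and short black lines the group means.

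Other probe sets of the same genes seldom passed the test. Of the 56 genes with any probe set called higher, 18 had 29 other probe sets, of which 19 ran the same way and 1 passed the test. Their median difference was 0.13. Of the 33 genes with any probe set called lower, 19 had 27 others, of which 20 ran the same way and 1 passed, with a median of -0.25.

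Sertoli cell genes seldom passed the test, and their higher sum rested on a pair of genes. Of 18 measured marker genes, 1 passed the test as higher and none as lower, with a list median of 0.09, against 0.02 over all genes (1.45% of genes passed as higher and 1.48% as lower), and 8 of the 14 above the table median were held. The summed signal of the list was 9769 to 11079 at stage VI, against 8310 to 8801 at stages IV-V, without overlap. Without Ctsl and Prnd the other 16 summed to 6832 to 7639 at stage VI, against 6854 to 7254 at stages IV-V, which overlap. Ctsl, the lysosomal protease cathepsin L that Sertoli cells secrete, was the one that rose. It was 1560.4, 2067, 2089, 1892 and 2192 at stage VI, against 1001, 965, 999 and 970.1 at stages IV-V. The stage IV-V samples were almost level, and all stage VI samples were well above them (0.98 ± 0.14, adjusted p = 7.95e-06). At 2021 ± 98.3, VIIa.b was close to the stage VI mean of 1960.2 ± 248 (SD, n = 5 each). A dimmer Ctsl probe set ran the same way without passing (log2 0.52, adjusted p = 0.213). Prnd, which encodes the prion-like protein doppel, was 958, 1291, 1224, 1459.8 and 1485 at stage VI, against 547, 563, 542 and 486 at stages IV-V. Its groups were apart too, but it did not pass (1.24 ± 0.39, adjusted p = 0.0994 in the fit of 49 samples). That fit takes 1 spread per probe set from all stages, and in a fit of the 9 samples alone the standard error was 0.12 and the adjusted p 0.000262.

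Of 13 acrosomal and round spermatid genes none passed limma's adjusted test and 6 were held, with a median of 0.04. An unadjusted p under 0.05 was found for 1, which was lower at stage VI. Spam1 and Acrv1, which both had their highest stage mean at stage VI, were higher there in every sample without passing. Spam1, the sperm hyaluronidase, had 2462 to 2986 at stage VI, against 2008 to 2155 at stages IV-V (0.36 ± 0.32, adjusted p = 0.792). Acrv1, an acrosomal vesicle protein gene, had 2308 to 2777 at stage VI, against 1789.8 to 2072 (0.40 ± 0.20, adjusted p = 0.488). In the 9-sample fit their adjusted p values were 0.0454 and 0.028. In both genes the lowest stage VI sample lay above the highest at stages IV-V. Acr and Zpbp2 differed by a similar amount the other way, with overlap and without passing. Acr averaged 978 at stage VI and 1209 at stages IV-V (-0.37 ± 0.22, adjusted p = 0.598). Zpbp2 averaged 243 at stage VI and 310 at stages IV-V (-0.35 ± 0.22, adjusted p = 0.615).

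Genes of late spermatid chromatin and the tail gave 2 higher and 0 lower of 20 measured, against 1.45% and 1.48% of all genes. Their median was 0.28, and 9 were held. Tnp1, a transition protein that replaces histones in elongating spermatids, was 4467, 6203, 6697, 5343 and 6013 at stage VI, against 3366, 2777, 2354 and 2210.4 at stages IV-V (1.11 ± 0.25, adjusted p = 0.0077). Tnp2, its partner, was 1340.2, 1611, 1689, 1998 and 2201 at stage VI, against 1021, 1027, 658 and 620.1 at stages IV-V (1.10 ± 0.28, adjusted p = 0.0215). The groups were apart in both. Without stage VI replicate 4 or 5, or stage IV-V replicate 4 or 5, Tnp2 did not pass (adjusted p up to 0.108). Tekt5, a tektin of the tail, was 489 to 614 at stage VI, against 277 to 321 at stages IV-V, without passing (0.88 ± 0.29, adjusted p = 0.133). In the 9-sample fit its adjusted p was 0.000307.

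The cAMP response element TGACGTCA, a palindrome bound by the CREM family that drives many spermatid genes, was searched in RefSeq promoters of the GRCr8 build, 250 bases before to 50 after each start. It was present in 2 of 46 matched promoters of genes called higher (4.35%) and 0 of 29 of genes called lower, against 335 of 11734 of genes on the array (2.85%). Its core TGACG, on either strand and counted also inside the palindrome, was in 32.6%, 31.0% and 29.2% of the same sets. The 2 matches are shown, as 100 bases of the strand of the gene with the palindrome in capitals. It begins 113 bases before the start of Tnp1 (chr9:82044338-82044437, minus strand) and 61 before that of Tubb2a (chr17:31002079-31002178, plus strand).
Tnp1: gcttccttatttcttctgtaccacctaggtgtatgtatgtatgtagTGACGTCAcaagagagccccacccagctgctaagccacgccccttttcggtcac
Tubb2a: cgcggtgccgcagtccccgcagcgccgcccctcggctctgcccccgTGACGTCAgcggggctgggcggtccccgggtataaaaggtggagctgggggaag
Tubb2a, a beta-tubulin gene shown only because it holds the motif, had 319 to 499 at stage VI, against 163 to 192 at stages IV-V (1.29 ± 0.15, adjusted p = 1.70e-07).

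In the list of retinoid genes, 1 gene passed the test in each direction. That was 1 higher and 1 lower of 20 measured, against 1.45% and 1.48% of all genes, and the list median was -0.02. Rdh10, which oxidises retinol to retinal, was 102, 158, 114, 219.9 and 225 at stage VI, against 62.9, 73.4, 86.6 and 58.2 at stages IV-V. All stage VI samples were above all stage IV-V samples (1.11 ± 0.18, adjusted p = 8.31e-05), and VIII reached 2265 ± 151 (SD, n = 5). A dimmer Rdh10 probe set did not pass (log2 -0.04). Rdh11, a retinal reductase, was 195, 126, 156, 186 and 140.4 at stage VI, against 316, 292, 296 and 308 at stages IV-V. It fell by 0.91 on the log2 scale with no overlap (SE 0.11, adjusted p = 1.72e-07), and stage VI was its lowest stage mean, while II-III had 967 ± 70.1 (SD, n = 5). Among isolated cells Rdh10 was highest in round spermatids, at 706 ± 81.4, and Rdh11 in pachytene spermatocytes, at 1279 ± 139.7 (SD, n = 4 each).

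Among cell junction genes 1 of 16 rose and 1 fell, with a median of 0.03, where 1.45% of all genes passed as higher and 1.48% as lower. Gja1, the gap junction protein connexin 43, was 187, 305, 301, 234 and 235 at stage VI, against 158, 159, 167 and 136 at stages IV-V (0.67 ± 0.12, adjusted p = 0.000452). Tjp1, the tight junction scaffold ZO-1, was 152, 165, 151, 152 and 118 at stage VI, against 221, 217, 209.9 and 202 at stages IV-V (-0.52 ± 0.10, adjusted p = 0.00218). Both genes were highest in isolated Sertoli cells, at 1910.1 ± 329.9 and 760.2 ± 54.9 (SD, n = 4 each), and their groups did not overlap. Dimmer probe sets of both did not pass, at log2 0.08 and 0.44 for Gja1 and -0.35 for Tjp1. In the list of proteases and their inhibitors, which also holds Ctsl and Timp1, those 2 of 19 rose and none fell, with a median of 0.08. In the cholesterol synthesis list 1 of 18 rose, with a median of 0.11. It was Fdps, farnesyl diphosphate synthase, at 1646 to 2294 at stage VI, against 1249 to 1362 at stages IV-V (0.62 ± 0.11, adjusted p = 0.000384).

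Genes of cell division that passed the test were lower. In the list of G2 and M phase genes 4 of 24 passed as lower and 0 as higher, against 1.48% and 1.45% of all genes. The list median was -0.16, and 14 of the 22 above the table median were held. The list's summed signal was 5611 to 6312 at stage VI, against 6565 to 6918 at stages IV-V. Besides Kif18b these were Aurka and Aurkb, the aurora kinases of the spindle and of the chromosomal passenger complex, and the checkpoint kinase gene Bub1, which was named after its value was seen. Aurka was 110.4, 85.1, 82.3, 66.6 and 93.3 at stage VI, against 186, 174, 166 and 113 at stages IV-V (-0.82 ± 0.18, adjusted p = 0.00393). Aurkb had 97.4 to 149 at stage VI, against 163 to 186 at stages IV-V (-0.60 ± 0.16, adjusted p = 0.0365), and passed in 9 of 19 alternative settings. It failed without any 1 sample other than stage VI replicate 4, with adjusted p up to 0.135. Bub1 averaged 511 ± 75 at stage VI and 751 ± 48.0 at stages IV-V (-0.56 ± 0.13, adjusted p = 0.00975). Aurka, Aurkb and Kif18b all had their highest stage mean at I, and each was higher in isolated pachytene spermatocytes and round spermatids than in the mixture of spermatogonia and early spermatocytes.

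Of 33 DNA replication genes, 1 rose and 1 fell, against 1.45% and 1.48% of all genes, with a median of -0.06 and 13 of 23 held. Ccne2, the S-phase cyclin E2, was 159, 169.8, 152, 138 and 116 at stage VI, against 63.9, 73.7, 95.5 and 108 at stages IV-V (0.77 ± 0.19, adjusted p = 0.0182), with the lowest and highest values close. It failed without stage VI replicate 2 or stage IV-V replicate 2 or 3, with adjusted p up to 0.132. A dimmer Ccne2 probe set did not pass (log2 0.11). Rfc1, the large clamp loader subunit, averaged 103 ± 22.3 at stage VI and 145 ± 7.26 at stages IV-V (-0.50 ± 0.13, adjusted p = 0.0257) and was likewise named after its value was seen. Of 13 spermatogonial markers none passed limma's adjusted test or had an unadjusted p under 0.05 (median -0.09), and 4 of the 7 above the table median were held.

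Of 9 pachytene markers 7 of the 8 above the table median were held, where the brightest of the 4 signal groups had 77.3% held. Of the 9, 1 passed as higher and 1 as lower, against 1.45% and 1.48% of all genes. Ccna1, the germ cell cyclin A1, was 1184, 889, 912, 1039 and 1073 at stage VI, against 1597, 1424, 1399 and 1429 at stages IV-V (-0.52 ± 0.14, adjusted p = 0.0341, past the test in 11 of 19 alternative settings). It failed without stage VI replicate 2, 3 or 4 or any 1 stage IV-V sample, with adjusted p up to 0.143. A dimmer Ccna1 probe set ran the same way without passing (log2 -0.91). Tdrd1, a piRNA pathway gene, rose by 0.35 (SE 0.09, adjusted p = 0.0222) and was also held within 1.5-fold. It passed in 10 of 19 alternative settings, failing without stage VI replicate 2, 3 or 5 or stage IV-V replicate 3, 4 or 5, with adjusted p up to 0.188. In the meiotic recombination list 1 of 10 passed, as higher, against 1.45% of all genes. It was Mlh3, a mismatch repair protein of crossovers, at 36.0, 48.7, 34.0, 42.6 and 42.2 at stage VI, against 10.4, 8.81, 29.1 and 12.2 at stages IV-V (1.27 ± 0.30, adjusted p = 0.0112). Stage IV-V replicate 4 was near the stage VI range. The call failed without stage IV-V replicate 2 or 3 and in the 9-sample fit, with adjusted p up to 0.0772. Another Mlh3 probe set ran the same way without passing (log2 0.38). Of 6 spermatid transcription regulators 4 were held and none passed limma's adjusted test (2 had an unadjusted p under 0.05), with a median of -0.25. Their summed signal was 5238 to 5860 at stage VI, against 6264 to 6601 at stages IV-V.

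Abundant transcripts were among those held. The 12 held genes of highest signal were Gapdhs, Gsg1, Odf2, Ldhc, COX1, Dbil5, Rpl39l1, Morf4l1, C8h11orf71, Tubb4b, Glul and Dnaaf1. Gapdhs, the sperm glyceraldehyde phosphate dehydrogenase, was 6877, 7739.6, 8597, 7791 and 9736 at stage VI, against 8163, 6152, 6626 and 7469 at stages IV-V, with the groups mixed (0.20, 95% interval -0.09 to 0.48). Tubb4b, a beta-tubulin, was 4931, 4626, 4874, 5124 and 5649 at stage VI, against 5828, 4540.3, 4605 and 4888 at stages IV-V (0.03, interval -0.21 to 0.26). Dnaaf1, a dynein arm assembly factor, was 4293 to 4916 at stage VI, against 4557 to 5395 at stages IV-V (-0.08, interval -0.25 to 0.10). The adjusted p values for lying inside 1.5-fold were 0.0113, 0.000144 and 8.3e-06. Over the 19 alternative settings the difference ran from -0.08 to 0.27 for Gapdhs, -0.20 to 0.11 for Tubb4b and -0.31 to -0.03 for Dnaaf1. Under quantile normalization Dnaaf1 passed limma's test of a difference as lower (adjusted p = 0.0308). Ldhc, the germ cell lactate dehydrogenase, was at the edge of the rule, at an adjusted p of 0.0452, with an interval of -0.09 to 0.59 that itself reaches past the margin of 0.585.

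Most genes of the proteasome and of mitochondrial complex I were held too. Of proteasome subunit genes 33 of 35 above the table median were held and none of the 36 measured passed limma's adjusted test (median 0.03; 4 at an unadjusted p under 0.05). Of mitochondrial complex I genes 30 of 33 were held and none of 34 passed limma's adjusted test (median 0.09; 7 at an unadjusted p under 0.05). Across all genes above the table median, 5815 of 9143 were held (63.6%), and the brightest of the 4 signal groups of probe sets had 77.3% held. An unadjusted p under 0.05 was found for 3325 of all 31042 probe sets. Cytosolic ribosomal protein genes had 38 of 43 held but a median of 0.22, and 3 of 48 passed as higher, against 1.45% of all genes. Their summed signal was 66624 to 78053 at stage VI, against 59399.9 to 65287 at stages IV-V, and 20 of 48 had an unadjusted p under 0.05, each of them higher at stage VI. The 3 were Rpl26 (0.45 ± 0.09, adjusted p = 0.00264) and, named after their values were seen, Rpl3 (0.39, adjusted p = 0.0376) and Rpl19 (0.36, adjusted p = 0.0459). The 9 germ cell metabolic isozymes had 8 of 8 held. The ninth, Oxct2b, a spermatid ketone-body transferase, was 61.3, 189, 109.6, 157 and 151 at stage VI, against 76.1, 60.4, 13.6 and 7.29 at stages IV-V (1.96 ± 0.31, adjusted p = 5.55e-05). Here the lowest stage VI sample lay between the higher stage IV-V samples, and the 9-sample fit did not call it (adjusted p = 0.0783).

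**Figure D5:**
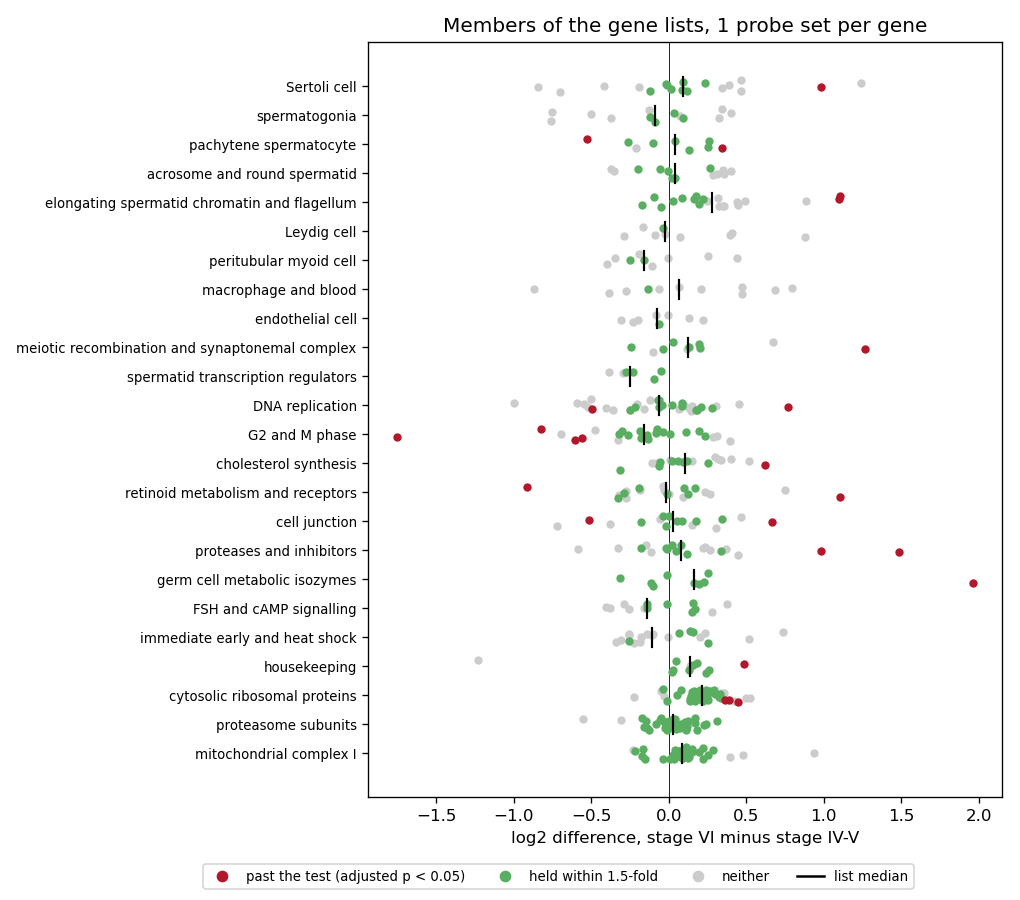
Log2 difference (stage VI minus stage IV-V) of the measured genes of 24 lists, 1 probe set per gene. Red points passed the test, green points were held within 1.5-fold, grey points did neither, and black bars are list medians; proteasome and complex I genes gather near 0.

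Among markers of cells outside the epithelium, only the summed signal of the peritubular myoid list kept the groups apart, by a narrow gap. None of 9 Leydig, 9 myoid, 11 macrophage and blood, and 8 endothelial genes passed limma's adjusted test, with medians of -0.03, -0.16, 0.07 and -0.07 and with 1, 2, 2 and 0 at an unadjusted p under 0.05. The summed signal of the myoid list was 848 to 1044 at stage VI, against 1049.7 to 1212 at stages IV-V, without overlap. Its members went both ways. Myh11 (-0.40) and Mylk (-0.35) were lower, while Des (0.44, without overlap) and Actg2 (0.25) were higher. Of the 9 myoid genes 1 was below the pseudocount in both groups, and the part of this list in the results was not tested. The other sums overlapped. That of the Leydig list was 338 to 442 at stage VI, against 355 to 438 at stages IV-V. That of the macrophage and blood list was 480 to 623 at stage VI, against 496 to 585, and that of the endothelial list 211 to 319 at stage VI, against 258 to 286. None of 20 immediate early and heat shock genes and none of 13 of FSH and cAMP signalling passed limma's adjusted test (medians -0.10 and -0.14, with 0 and 2 at an unadjusted p under 0.05). Of 11 housekeeping genes, 8 were held and 1, Sdha, passed as higher (0.49 ± 0.12, adjusted p = 0.0127), against 1.45% of all genes. Sdha did not pass in the 9-sample fit, with each array centred on its median, or without stage VI replicate 2 or stage IV-V replicate 5 (adjusted p up to 0.108).

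No difference in RNA quality was detected with the control probe sets, at this number of samples. The 3′ to 5′ ratio of GAPDH was 1.11 ± 0.115 at stage VI and 1.14 ± 0.115 at stages IV-V (SD, n = 5 and 4; exact permutation test over 126 arrangements, two-sided p = 0.754). That of actin was 1.97 ± 0.207 at stage VI and 1.81 ± 0.0499 at stages IV-V (p = 0.238, same exact test). The median signal was 45.8 ± 1.5 at stage VI and 44.4 ± 2.00 at stages IV-V (p = 0.262, same exact test).

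The few called genes whose own peak lay at 1 of these stages are given last. Besides Etfb, Wnt7a, a secreted WNT ligand, peaked at stage VI, with 149, 177, 189.8, 173 and 103, against 75.1, 96.9, 62.3 and 55.9 at stages IV-V (1.07 ± 0.28, adjusted p = 0.0263), and 157 ± 12.5 at VIIa.b (SD, n = 5). It was past the test in 11 of 19 alternative settings, failing without stage VI replicate 2, 3 or 4 or stage IV-V replicate 2, 4 or 5, with adjusted p up to 0.119. A dimmer Wnt7a probe set ran the same way without passing (log2 0.26). Trmu, a tRNA-modifying enzyme of mitochondria, had 76.1 to 119 at stage VI, against 20.0 to 105 at stages IV-V, which overlap (1.28 ± 0.32, adjusted p = 0.0179). It failed in the 9-sample fit and without stage VI replicate 3 or stage IV-V replicate 3 or 4 (adjusted p up to 0.14). Slc26a10 had 9.51 to 31.9 at stage VI, against 3.45 to 7.05, and passed in 4 of 18 alternative settings, among single samples only without stage VI replicate 5. Deaf1, Mllt1, Psmd11 and LOC100909739 were among the called genes with their highest stage mean at IV-V; LOC100909739 overlapped between the groups and passed in 7 of 18 alternative settings, among single samples only without stage VI replicate 3 or stage IV-V replicate 4. Mllt1, a chromatin reader of the elongation machinery, had 39.8 to 102 at stage VI, against 146 to 231 at stages IV-V (-1.27 ± 0.32, adjusted p = 0.0202), and the other 4 probe sets of the gene did not pass. It failed without stage VI replicate 2 or 5 or stage IV-V replicate 2, 3 or 4 (adjusted p up to 0.105). The called Psmd11 probe set had 17.6 to 55.2 at stage VI, against 37.1 to 100.1 at stages IV-V (-1.44 ± 0.29, adjusted p = 0.00177; 0.0689 in the 9-sample fit), while its brighter probe sets differed by -0.13 and -0.05.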

How the data were processed

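The deposited values are MAS5 signal intensities, named as such per the submitters' processing notes; the version and scaling are not given in the sources used here. In every array the mean after removal of 2% at each end was 100, so each array had been scaled by the authors to 1 level before deposit. No detection calls were used, and the number of arrays limits the precision. Of 31099 probe sets, 57 controls were left out; 20826 had 1 gene symbol in the platform table, updated through the RefSeq GRCr8 gene table for 20761, giving 14217 genes, 1 probe set each by highest mean signal. The lists used that probe set. The 56 genes called higher and 33 called lower had any probe set called. The largest changes and the peaks at stage VI or IV-V were also taken from called probe sets only, the brightest for each gene.

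Log2(signal + 5.12), the pseudocount being the 10th percentile of all values, was fitted with limma 3.58.1 (lmFit, eBayes with trend, R 4.3.3) over 49 tubule samples in 10 stage groups, without a block. P-values were Benjamini-Hochberg adjusted over 31042 probe sets. Each probe set's spread thus comes from all 10 stages. Named genes were up to 15 called in each direction without overlap, up to 4 of largest difference per list, up to 12 held, and up to 6 called with their peak at each stage. The members and the 24 lists (418 genes measured) were chosen with earlier results of these data known. Per the labels, the samples of a stage are independent pools; whether the same rats gave segments to several stages is not stated there, so independence between stages is not known. Same-numbered samples were checked for pairing. The calculation was tested on simulated data.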

Additional observations from a re-analysis of the deposited data

Results flagged for a closer look

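Dixon's gap criterion at the 95% level, where chance alone gives about 1 in 20, was used to screen 284 groups of values. These were values of named genes and of array quality measures. In 23 groups, all of named genes, a sample stood far from the rest of its group. At stage VI these were Cd163 at 25.5, LOC102548489 at 223 and Rhbdd1 at 202 in replicate 1; Lyz2 at 17.8 and Psmd11 at 55.2 in replicate 2; Kif18b at 6.19 and Plxnd1 at 10.9 in replicate 3; and Gins3 at 38.7, Mvd at 17.4, Hsd17b7 at 23.4, Cdh2 at 4.66 and Tjp1 at 118 in replicate 5. At stages IV-V these were Ccna1 at 1597, Hsd11b1 at 5.60 and Adam4 at 65.2 in replicate 2, and Spam1 at 2008, C1qa at 11.7, Slc2a3 at 500.4, Prss37 at 12.2 and Psmd11 at 37.1 in replicate 3. Kif18b at 68.5 in replicate 4, and Espn at 73.6 and Plxnd1 at 4.13 in replicate 5, complete them. Stage VI replicate 5 and stage IV-V replicate 3 held 5 each, and stage VI replicate 4 none.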

How the results depend on the processing

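Under the 10 alternatives that left out no stage VI or IV-V sample, probe sets called at 2-fold numbered 70 (pseudocount 16) to 114 (no pseudocount), against 105, and those past the test 392 (no variance trend) to 698. Leaving out 1 sample gave 83 (without stage IV-V replicate 2 or 4) to 141 (without stage VI replicate 1) called, 329 (without stage IV-V replicate 2 or 3) to 716 (without stage VI replicate 1) past the test, 7270 to 8219 held and a median absolute difference of 0.198 to 0.210. Held probe sets numbered 7720 to 10933 under the other alternatives, and the median absolute difference was 0.151 to 0.237. A 1.5-fold threshold gave 287 calls and a 4-fold threshold 7; a margin of 2-fold gave 13925 held and the narrower margin that was tried 147. No called probe set changed direction under any of these. Same-numbered samples of both stages had residual correlations of -0.03 to 0.06, so the numbers were not taken to pair them. Over all 10 stages, same-numbered pairs averaged 0.074 (216 pairs, up to 0.31) and other pairs -0.018 (864 pairs); the cause was not tested. With the replicate number as a block, 112 were called (99 of the 105 among them), 698 passed the test, 9190 were held and the median absolute difference was 0.193. The fit of the 9 samples alone called 91, sharing 67 of the 105; 12 named genes lost the test there and 8 gained it. Of 52 named genes past the test, 30 passed under every alternative run; Slc26a10 (4 of 18), LOC100909739 (7 of 18) and Ccdc86 (7 of 19) passed least often. Precision was lower for dim probe sets: 16346 were not above the table median in both groups, with a median standard error of 0.377 against 0.178 for the rest.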
